A study of Mus musculus with 72 samples.

Results

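The 10 genes described here encode the main heat shock chaperones of the cytosol and the mitochondrial matrix. They were chosen by name, as Hsp90aa1, Hsp90ab1, Hspa8, Hspa1a, Hspa1b, Dnaja1, Dnajb1, Hsph1, Hspd1 and Hspe1. All 10 were present in each of 4 count tables, which together listed 38951 genes, and all 10 passed the filter on low counts in every table.

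The counts come from polysome profiling of B-cell lymphoma cells from Eμ-Myc mice, whose Myc transgene under the immunoglobulin heavy-chain enhancer gives rise to B-cell tumours. In the acute study, cells of a single lymphoma clone, number 4242, carrying a retroviral Gfp vector (MSCV Gfp), were transplanted into C57BL/6 mice. On day 10, mice received vehicle, 35 mg/kg of CX-5461, 5 mg/kg of everolimus, or the 2 drugs together for 2 h, with 6 mice per group and lymph node tissue as the source. CX-5461 is an inhibitor of RNA polymerase I transcription, which makes ribosomal RNA, and everolimus is an inhibitor of mTORC1, a kinase complex that promotes translation and growth. In the relapse study, 12 early-passage lines were grown in culture for 2 to 3 passages from lymph nodes of mice that had carried clone 107, another MSCV Gfp clone, and had relapsed after vehicle (drug-naive lines Ctrl6, Ctrl33 and Ctrl38), CX-5461 (CX14, CX20 and CX39), everolimus (EV4, EV12 and EV26) or both drugs (CMB8, CMB9 and CMB31). From every mouse and line, cytoplasmic (input) RNA and polysomal RNA were sequenced as separate libraries, the latter pooled from sucrose gradient fractions with 4 or more ribosomes, for 72 libraries in all. The mice of a group are separate animals, whereas each study rests on 1 clone, so the p-values measure the spread among animals or lines of that clone only.

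Chaperones bind proteins that are not yet folded or have come unfolded, and keep them from aggregating. HSP70 proteins hold short exposed stretches in a cycle driven by ATP, J-domain proteins bring clients and start ATP hydrolysis, HSP110 proteins exchange the nucleotide, and HSP90 takes over clients near their folded state, many of them kinases and transcription factors. Unfolded protein frees the transcription factor HSF1, which binds heat shock elements, inverted repeats of the unit GAA, and turns on the inducible HSP70 genes within minutes, while the constitutive members are made in bulk in growing cells because newly made polypeptides need them.

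HSP90 is encoded by Hsp90aa1 (inducible α form, GRCm38 chr12:110690605-110702728, minus strand) and Hsp90ab1 (constitutive β form, chr17:45567775-45573271, minus). The HSP70 members are Hspa8 (the constitutive cytosolic HSC70, chr9:40800984-40810087, plus) and the stress-inducible pair Hspa1a (chr17:34969190-34972156, minus) and Hspa1b (chr17:34956436-34959238, minus), neighbours on the same strand. Their partners are the J-domain proteins Dnaja1 (chr4:40722150-40737149, plus) and Dnajb1 (chr8:83608193-83612653, plus) and the HSP110 protein Hsph1 (chr5:149614287-149636376, minus). In mitochondria, Hspd1 (HSP60, chr1:55077835-55088243, minus) forms the folding chamber and Hspe1 (HSP10, chr1:55088132-55091307, plus) its lid, and the 2 genes are transcribed away from each other with overlapping first exons. Gene spans are from the GENCODE M21 annotation.

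The upstream sequences of the inducible pair and of Hspe1 are shown, those of the pair because they are near copies. Among the genes with an entry, Hspe1 and the second entry of Hspd1, which hold the same stretch, carry the most heat shock elements. The first Hspd1 entry carries 0. RefSeq promoter entries (GRCm38.p6) matched 7 of the 10 genes. Capitals mark heat shock elements of 2 or more units, searched as GAANNTTC or TTCNNGAA, each of which reads the same on both strands. The Hspa1a and Hspa1b windows run from 250 bases upstream to the base before the start, at chr17:34972157-34972406 and chr17:34959239-34959488, both on the minus strand and outside annotated exons. The Hspe1 stretch of 30 bases, chr1:55088053-55088082 on the plus strand, lies upstream of the Hspe1 start and within the Hspd1 gene. All 250 bases of its window are annotated exon.
Hspa1a: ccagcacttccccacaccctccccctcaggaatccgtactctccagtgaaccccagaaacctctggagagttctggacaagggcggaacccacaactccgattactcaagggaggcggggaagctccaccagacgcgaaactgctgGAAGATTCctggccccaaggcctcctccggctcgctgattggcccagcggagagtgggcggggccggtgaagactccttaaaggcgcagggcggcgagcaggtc
Hspa1b: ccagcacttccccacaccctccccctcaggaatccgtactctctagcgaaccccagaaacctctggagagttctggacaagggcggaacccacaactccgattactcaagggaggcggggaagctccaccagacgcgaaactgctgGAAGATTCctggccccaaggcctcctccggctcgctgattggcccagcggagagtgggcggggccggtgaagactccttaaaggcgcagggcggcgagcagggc
Hspe1: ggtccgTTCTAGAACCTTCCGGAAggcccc

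The Hspa1a and Hspa1b windows were identical at 247 of 250 positions (98.8%), and each held 1 element of 2 units, 104 bases before the start. A 2-unit element in either order was found in 12.8% of 32851 mouse windows of 250 bases. The Hspe1 window held 3 overlapping 2-unit elements, which together make 2 overlapping elements of 3 units (GAANNTTCNNGAA or its reverse complement), an arrangement of 3 units found in 0.466% of windows. These matches are letters in a window and were not tested for binding.

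Several members also share transcript sequence with other genes, which limits how well 50-base reads can be placed. Of all 50-base windows of the Hspa1b transcript, 62.3% occurred in Hspa1a, so the pair was also summed. For Hspa8, 74.8% of windows occurred in at least 1 other annotated gene, mostly processed pseudogenes, for Hsp90aa1 58.5%, for Hspd1 and Hspe1 44.8% each, for Dnaja1 28.8%, and for Hsp90ab1, Dnajb1 and Hsph1 4.49%, 0.441% and 0. How reads with several matches were counted, and whether strand was used, is not given in the sources used here.

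Libraries held between 11.5 M and 30.4 M gene counts, and Hspa1a, the least counted member, had 34 to 1063 counts in acute input libraries and 5 to 265 in relapse polysomal libraries. The 10 B cell markers (Cd79a, Pax5 and others) were all detected in every group. In acute input RNA the 16 T cell markers summed to 113 to 142 CPM (counts scaled to a common library total) under vehicle and 85.2 to 117 under the combination, the 10 myeloid markers to 422 to 484 and 397 to 499, and the 11 stromal and endothelial markers to 1129 to 1509 and 1309 to 1655, so RNA of other cells was present; fewer cells of a type and less RNA per cell cannot be told apart in these bulk samples. In the cultured lines the myeloid sum was 7.35 to 12.4 CPM in input RNA, with S100a8 and S100a9 at 0 in the naive lines, the stromal and endothelial sum was 26.3 to 44.6 CPM, and the T cell marker sum was 60.8 to 109 CPM (65.1 to 78.3 in the naive lines). Vehicle mouse 6 stood low for several members, and the polysomal libraries of lines CX14 and CX39 form a run of columns of their own at the end of their table. Results that rest on them are given with and without them. Leaving out a vehicle mouse that is low for a member moves the drug differences of that member down. Calls gained in that way are descriptions of the remaining mice.

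Compared per length, as CPM per kilobase of annotated exon, the levels of the members differed widely in vehicle input RNA. Hsp90ab1 was highest at 813 ± 57 CPM per kb (SD, n = 6), followed by Hspa8 at 504 ± 82.7, Hspd1 at 279 ± 20.3, Hsp90aa1 at 214 ± 13.9 and Hspe1 at 90 ± 13. The co-chaperones followed, with Dnajb1 at 16.4 ± 1.97, Hsph1 at 13.1 ± 2.55 and Dnaja1 at 10.2 ± 1.22 CPM per kb, and the inducible pair was lowest, with Hspa1b at 3.75 ± 2.04 and Hspa1a at 2.54 ± 1.5. The ranges over mice overlapped between Dnajb1 and Hsph1, between Hsph1 and Dnaja1 and between the 2 genes of the pair, although within each of the 6 mice the order was as given, Hspa1b above Hspa1a included. The 5 most abundant members did not overlap on this scale. Sequence shared with other genes differs between members (4.49% of windows for Hsp90ab1, 74.8% for Hspa8), and its part in the order was not tested. The order also depends on the length used. Per kilobase of the longest coding transcript, Hspa8 stood at 906 ± 149 and overlapped Hsp90ab1 (968 ± 67.8), Hspe1 stood at 171 ± 24.7, and Hsph1 (25 ± 4.86) stood above Dnajb1 (17.6 ± 2.1) and Dnaja1 (15.6 ± 1.87). In the naive lines, normalised in a separate table, the order per exon length was the same at the top (Hsp90ab1 532 ± 50, Hspa8 319 ± 22.4 and Hspd1 104 ± 3.25 CPM per kb, n = 3), while Hspe1 (58.3 ± 6.21) and Hsp90aa1 (57.3 ± 7.01) stood level and the pair was again lowest, Hspa1b at 0.321 ± 0.184 and Hspa1a at 0.269 ± 0.124. Per transcript length Hspe1 (111 ± 11.8) stood level with Hspd1 (113 ± 3.67) in those lines.

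Polysomal and input RNA of the same mouse were compared first, to see how the messages load onto ribosomes without drug. Hspd1, Dnaja1, Hsph1 and Hsp90aa1 were higher in polysomal RNA than in input RNA, relative to the average transcript, and Hspa8 and Dnajb1 were lower. The log2 ratio of polysomal to input CPM was 0.67 ± 0.10 (SD, n = 6 vehicle mice) for Hspd1, 0.68 ± 0.05 for Dnaja1, 0.55 ± 0.11 for Hsph1 and 0.28 ± 0.08 for Hsp90aa1, above 0 in 6 of 6 mice each. For Hspa8 it was -0.20 ± 0.07 and for Dnajb1 -0.20 ± 0.08, below 0 in 6 of 6 mice. The Hspa8 ratio was at most -0.15 and the Dnaja1 ratio at least 0.61 in any vehicle mouse, so the constitutive HSP70 and its J-domain partner lay apart.

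In edgeR's quasi-likelihood test with a block for each mouse, these 6 of 10 members had a Benjamini-Hochberg adjusted p under 0.05, the threshold for a call throughout. Of 16421 genes, 56.9% were called in this comparison, so the count is close to the background. Adjusted p was 8.31e-12 for Hspd1, 1.67e-11 for Dnaja1, 2.55e-10 for Hsph1, 8.07e-05 for Hsp90aa1, 0.00359 for Hspa8 and 0.000903 for Dnajb1. The estimates for the other 4 were 0.01 ± 0.05 (SE) for Hsp90ab1, 0.01 ± 0.05 for Hspe1, 0.16 ± 0.14 for Hspa1a and 0.27 ± 0.12 for Hspa1b. The median log2 difference of the members was 0.22, against -0.07 over all genes. The Hspa8 and Dnajb1 calls were lost when the block for each mouse was dropped (adjusted p = 0.0948 for Hspa8), and that of Dnajb1 also without the mice whose polysomal libraries are rich in Lars2 and Yam1 reads, vehicle mice 2, 5 and 6 among them (adjusted p = 0.105).

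In the cultured naive lines the same 4 messages were again above input. The log2 ratio was 1.26, 1.90 and 2.09 in lines Ctrl6, Ctrl33 and Ctrl38 for Hsph1, an exchange factor of HSP70, and averaged 1.33 ± 0.25 (SD, n = 3) for Dnaja1, 1.28 ± 0.28 for Hsp90aa1 and 1.07 ± 0.17 for Hspd1. All 3 lines were above 0 for each of these genes. In total 5 members were called, against 44.1% of 15637 genes, with adjusted p of 2.66e-05 for Hsph1, 7.62e-05 for Dnaja1, 0.000122 for Hsp90aa1, 0.000172 for Hspd1 and 0.0482 for Hsp90ab1 (0.39 ± 0.14, SE). The Hsp90ab1 call held in 2 of 7 alternatives and was lost without line Ctrl33 or Ctrl38 (adjusted p up to 0.198), with other size factors (0.061), with no count filter (0.0623) and without the block (0.0738). The estimates of the other 5 were 0.40 ± 0.22 (SE) for Hspa8, 0.36 ± 0.16 for Hspe1, -0.25 ± 0.11 for Dnajb1, -0.72 ± 0.66 for Hspa1a and -0.26 ± 0.65 for Hspa1b. The median over members was 0.39, against -0.10 over all genes. Of the mitochondrial partners, Hspd1 stood above its lid protein Hspe1 in every vehicle mouse (0.51 to 0.79 against -0.14 to 0.09) and naive line (0.95 to 1.27 against 0.15 to 0.49). The coding sequence has 1719 bases in Hspd1 and 306 in Hspe1, and the pool holds messages with 4 or more ribosomes. The part of coding length in this difference was not tested. Differences between mice and lines in these ratios were not tested, since their tables were normalised separately.

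**Figure D1:**
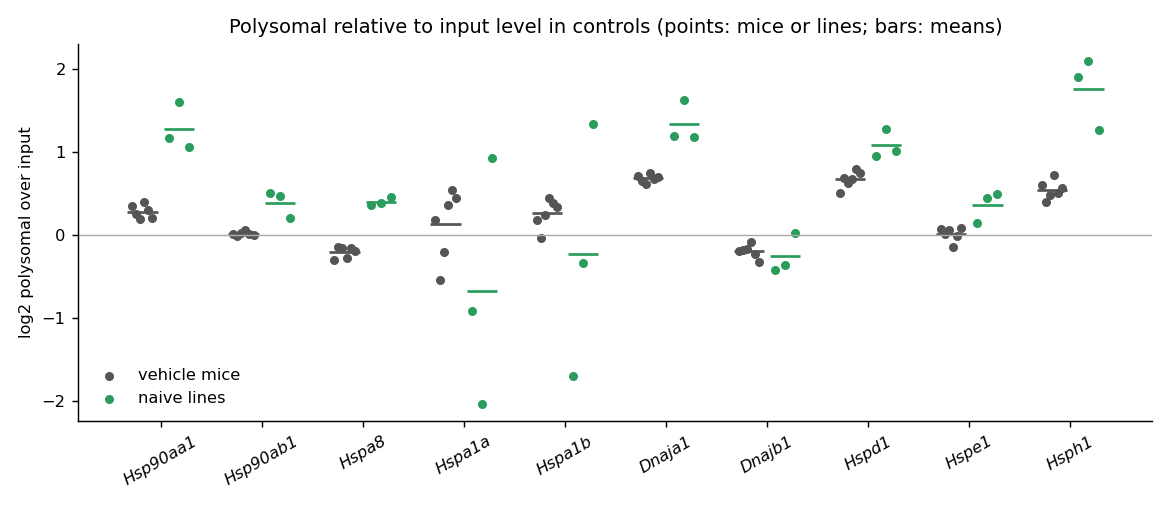
Log2 ratio of polysomal to input CPM of the 10 chaperone genes (vertical axis) in each of the 6 vehicle mice and 3 drug-naive lines, with bars at the means. Hspd1, Dnaja1, Hsph1 and Hsp90aa1 lie above 0 in every mouse and line shown, and Hspa8 lies below 0 in the mice and above 0 in the lines.

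Among the members, the inducible pair varied most between acute mice. In input RNA, Hspa1a and Hspa1b summed to 8.4, 14.6 and 35.4 CPM (lowest, median and highest of 6 mice) under vehicle, to 9.84, 24.5 and 101 under CX-5461, to 5.83, 17.5 and 79.8 under everolimus and to 5.28, 46.5 and 133 under the combination. The groups overlapped: both the lowest and the highest of all 24 mice had received the combination, and 3 of its 6 mice lay above every vehicle mouse. In polysomal RNA the sums were 13.4, 18.6 and 59.9 CPM under vehicle, 14.6, 37.5 and 134 under CX-5461, 9.11, 22.9 and 131 under everolimus and 9.3, 88.8 and 325 under the combination. There 4 of the 6 combination mice were above every vehicle mouse and 1 was below them all. Over the 24 mice the sum spanned 25.2-fold in input and 35.7-fold in polysomal RNA.

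Against vehicle, the polysomal difference under the combination was 2.28 ± 0.77 (log2, SE; 95% interval 0.68 to 3.87) for Hspa1a and 2.06 ± 0.71 for Hspa1b, neither past the threshold (edgeR quasi-likelihood, adjusted p = 0.0659 and 0.0681). DESeq2 put both just past it (adjusted p = 0.0413 and 0.045). Without combination mouse 6, the highest, the estimates were 1.64 and 1.43 (adjusted p = 0.189 and 0.204), and without combination mouse 2, the lowest, 2.52 and 2.31 (0.0503 and 0.0489, Hspa1b called). In input RNA the combination differences were 1.59 ± 0.69 and 1.56 ± 0.65 (adjusted p = 0.127 and 0.114). With CX-5461 alone they were 1.10 ± 0.69 and 1.13 ± 0.65, and with everolimus alone 0.68 ± 0.69 and 0.65 ± 0.65. With this spread among mice of one group, no estimate for the pair passed the threshold in the edgeR fit of all groups. In edgeR with the compared groups alone, with no mouse of those groups left out, both genes were called in polysomal RNA under the combination.

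**Figure D2:**
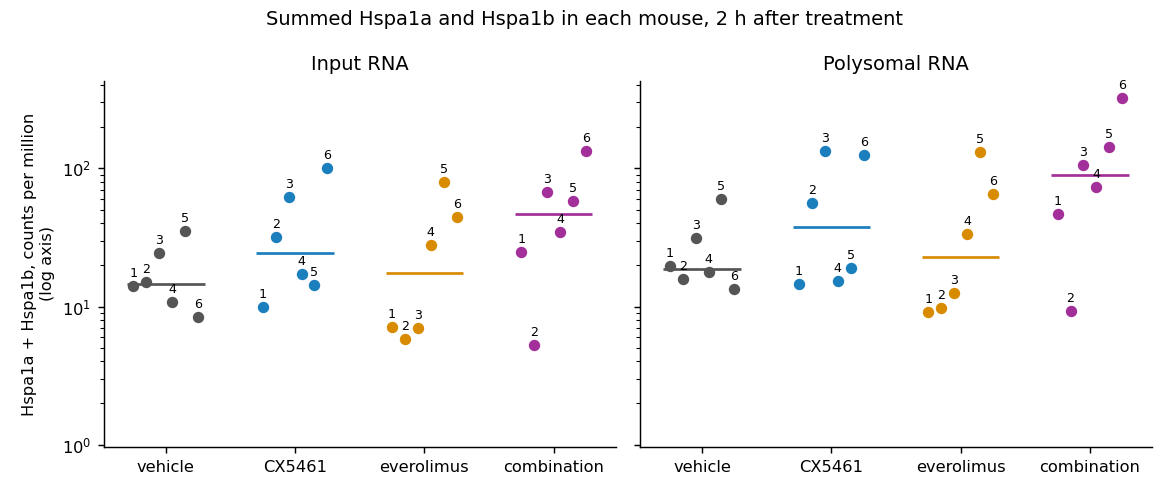
Summed CPM of Hspa1a and Hspa1b (log axis) in input and polysomal RNA of each acute mouse, numbered within its group, with bars at the group medians. Values range from 5.28 to 133 CPM in input and from 9.11 to 325 in polysomal RNA, the groups overlap, and mice keep nearly the same order in both fractions.

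The pair varied as 1 unit from mouse to mouse. After subtraction of each group's mean log2 level, the input and polysomal sums of the 24 mice correlated with r = 0.98 (Spearman's rho 0.97, and r = 0.97 without the 2 mice farthest from the median), where both libraries come from 1 lysate, and Hspa1a correlated with Hspa1b with r = 0.99, where the 2 genes share reads. The other members did not move with the pair to that degree. In input RNA r with the pair was 0.58 for Dnajb1, the J-domain partner of stress-induced HSP70, and 0.52 for Hsph1, and between -0.35 (Hspd1) and 0.15 (Hspa8) for the other 6. Among all 45 pairs of members the median r was 0.43. These correlations are descriptions over 24 mice that share library preparation and scaling.

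The genes whose deviations were most like those of the pair, ranked by r in input RNA among genes whose log2 CPM averaged 2 or more, were Jun (r = 0.86 in input, 0.87 in polysomal RNA), Pik3r5 (0.84 and 0.86), Socs3 (0.83 and 0.84), Lmna (0.82 and 0.68) and Thbs1 (0.80 and 0.80), over 24 mice each. Jun is a subunit of the AP-1 transcription factor, and its message rises within minutes of many stimuli. Its r with the pair in input RNA was 0.80 without the 2 farthest mice (rho 0.83 over all). With the sum of 15 early response genes (Fos, Jun, Egr1, Atf3, Dusp1 and others) r was 0.78 in input RNA (rho 0.77, and 0.82 without the 2 farthest mice). Taken singly, their r in input RNA ran from 0.00 (Klf2) and 0.01 (Btg2) to 0.86 (Jun). Those 15 genes summed to 329, 349 and 382 CPM (lowest, median, highest) under vehicle and to 381, 406 and 487 under the combination. The 2 groups met at their edges, and 1 of the 15 genes, Btg2, was called higher in input RNA (0.42 ± 0.07, adjusted p = 0.00154). The part of the early response in the level of the pair was not tested.

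**Figure D3:**
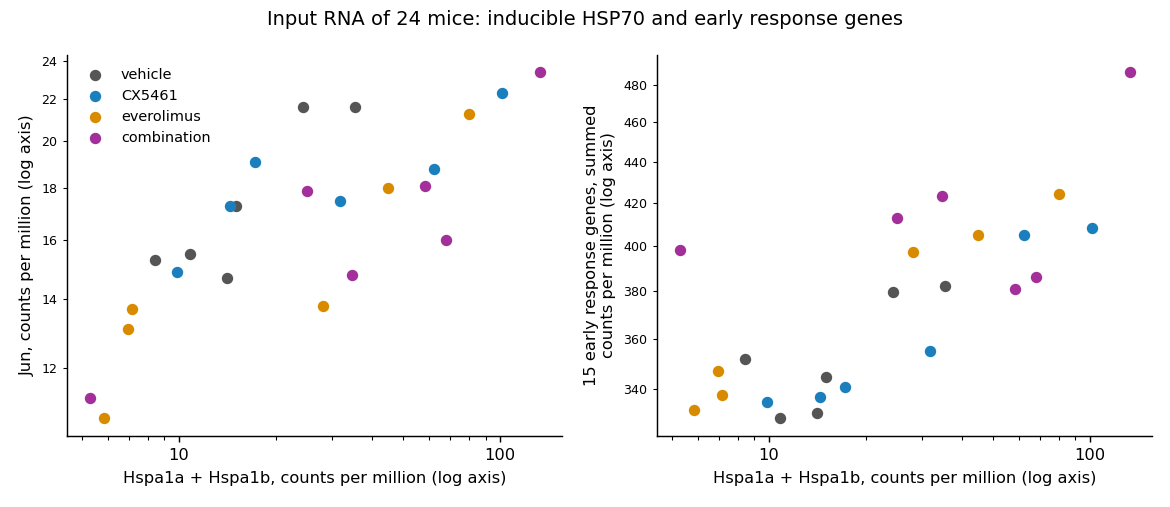
Input CPM of Jun (left) and of 15 early response genes summed (right), on the vertical axes, against the summed CPM of Hspa1a and Hspa1b in the 24 acute mice, coloured by treatment, all on log axes. Mice with more of the pair tend to have more Jun in each group, with r = 0.86 after subtraction of group means.

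The constitutive chaperones differed far less, and the direction under the combination was down. In polysomal RNA Hspa8, the HSC70 of unstressed cells, had 1625, 2425 and 2539 CPM under vehicle and 1571, 1802 and 2145 under the combination. The groups overlapped only through vehicle mouse 6, the lowest of its group, whose next mouse stood at 2389.8. Hspa8 was lower by a log2 difference of -0.34 ± 0.10 (SE; adjusted p = 0.0392).

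Its J-domain partner Dnaja1 had 134, 176 and 202 CPM under vehicle and 119.6, 134 and 175 under the combination, 3 combination mice lying below every vehicle mouse (-0.33 ± 0.10, adjusted p = 0.0409). Hspe1, the lid of the mitochondrial chaperonin, had 138, 159.5 and 187 CPM and 117, 134 and 159, with 5 of 6 combination mice below every vehicle mouse (-0.28 ± 0.08, adjusted p = 0.0388). These 3 members were the only ones called, against 7.42% of 15374 genes. The estimates of Hspd1 (-0.20 ± 0.07), Hsp90aa1 (-0.22 ± 0.09), Hsp90ab1 (-0.18 ± 0.08), Hsph1 (-0.34 ± 0.18) and Dnajb1 (-0.14 ± 0.10) were below 0 without a call. The members' median was -0.21, against -0.00 over all genes.

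All 3 calls were close to the threshold. They were lost when any 1 of vehicle mice 1 to 5 or combination mice 1, 2, 4, 5 or 6 was left out (adjusted p up to 0.126), and also with no count filter (0.0523 to 0.0678) or with the compared groups alone (0.0547 to 0.0679). They held without vehicle mouse 6 (-0.43, adjusted p = 0.0063 for Hspa8, -0.39, 0.0113 for Dnaja1 and -0.32, 0.0144 for Hspe1) or combination mouse 3. Without both of those mice, 7 members were called lower, among them Hspa8 (-0.48, adjusted p = 0.00185), Dnaja1 (-0.47, 0.00185), Hsph1 (-0.59, 0.0165) and Hsp90aa1 (-0.32, 0.0234). Vehicle mouse 6 was low for several of these members, so leaving it out moves their differences down. The share of all genes called without both mice is not reported here, so the count is not a result about the members. T cell markers were also lower under the combination, with 11 of 16 called and a polysomal sum of 126 to 162 CPM under vehicle and 95.8 to 129 under the combination. Of the NK cell markers, Nkg7 (-1.31 ± 0.21) and Eomes (-1.30 ± 0.33) were called lower and none higher. The part of these cells in the chaperone differences was not tested.

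In input RNA under the combination no member was called by edgeR, against 7.48% of 16055 genes, while 4 had an unadjusted p under 0.05 and DESeq2 called 2. The nearest were Dnajb1, at 41.3, 53.1 and 59.5 CPM under vehicle and 36.1, 44.3 and 51.3 under the combination (-0.27 ± 0.08, adjusted p = 0.0503), and Hspa8 (-0.33 ± 0.11, adjusted p = 0.0522). Vehicle and combination mice overlapped for all 10 members. Without vehicle mouse 6 and combination mouse 3, Hspa8, Dnajb1 and Hsph1 were called lower, and leaving out only one of these mice gave 2 calls (without vehicle mouse 6, Hspa8 -0.42, adjusted p = 0.00842, and Dnajb1 -0.33, 0.0109). Vehicle mouse 6 was low for input Hspa8 and Hsph1, so leaving it out moves their differences down by itself. The share of all genes called in these fits is not reported here, so the counts are not results about the members. The median over members was -0.12, against -0.00.

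Either drug alone gave no call among the members. After CX-5461, 1 member had an unadjusted p under 0.05 in input RNA and 2 in polysomal RNA, and DESeq2 called 0 in each, against 0.399% and 0.878% of all genes called by edgeR. The closest was Hspe1, at 168, 198 and 210 CPM in polysomal RNA after CX-5461 against 138, 159.5 and 187 under vehicle (0.23 ± 0.08, adjusted p = 0.137), with 4 of 6 treated mice above every vehicle mouse. After everolimus, 4 members in input and 3 in polysomal RNA had an unadjusted p under 0.05, all lower, and DESeq2 called 1 and 0, against 0.106% and 0.15% of all genes called. Hspa8 had 1412, 1709 and 1842 CPM in everolimus input RNA against 1519.6, 2190 and 2553 under vehicle (-0.36 ± 0.11, adjusted p = 0.178), and 1693, 1834 and 2013 against 1625, 2425 and 2539 in polysomal RNA (-0.32 ± 0.10, adjusted p = 0.206). The everolimus mice lay below every vehicle mouse but mouse 6 in both fractions, and without that mouse alone both were called (-0.45, adjusted p = 0.035, and -0.40, 0.0353), as they were without it and combination mouse 3 (0.0231 and 0.0266). Leaving out the vehicle mouse with the lowest Hspa8 moves these differences down by itself.

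**Figure D4:**
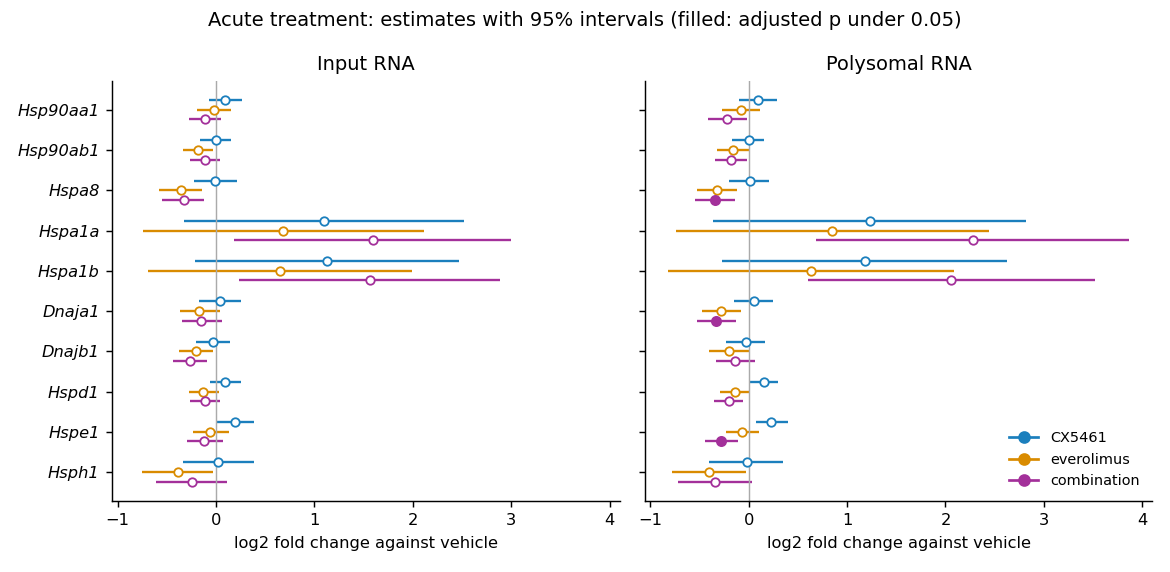
Log2 difference from vehicle (horizontal axis, with 95% intervals) of the 10 chaperone genes in input and polysomal RNA after CX-5461, everolimus or both for 2 h, filled where the adjusted p is under 0.05. The filled points are Hspa8, Dnaja1 and Hspe1 in polysomal RNA under the combination, and the widest intervals are those of Hspa1a and Hspa1b.

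The clearest acute separation of members was between the combination and CX-5461 alone in polysomal RNA, where 5 of the 10 members were lower and none higher. Hspe1 had 117, 134 and 159 CPM under the combination and 168, 198 and 210 under CX-5461, the only member whose groups did not overlap in any of the acute comparisons run (-0.51 ± 0.08, adjusted p = 0.000932). Its chamber protein Hspd1 had 1088, 1249.6 and 1419 CPM against 1410, 1669 and 1719, with 5 of 6 combination mice below every CX-5461 mouse (-0.35 ± 0.07, adjusted p = 0.00228). Among cytosolic members, Dnaja1 (119.6, 134 and 175 against 163, 181 and 195 CPM) differed by -0.38 ± 0.10 (adjusted p = 0.00763). The share of all genes whose groups lay apart is not reported here, so the gap of Hspe1 is a description of that gene.

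Again 5 of 6 combination mice were below every CX-5461 mouse for Dnaja1. Hspa8 differed by -0.35 ± 0.10 (adjusted p = 0.0147) and Hsp90aa1 by -0.31 ± 0.09 (0.02). This comparison called 23.6% of all genes, and the members' median was -0.32, against -0.01 over all genes. The Hspe1, Hspd1, Dnaja1 and Hspa8 calls held in all 19 alternatives, whereas that of Hsp90aa1 was lost without CX-5461 mouse 4, without combination mouse 4 or when the Lars2- and Yam1-rich libraries were left out (adjusted p up to 0.0596). The combination minus CX-5461 differences of the pair were 1.04 ± 0.73 for Hspa1a and 0.88 ± 0.67 for Hspa1b, without a call. In input RNA the same comparison called no member by edgeR, against 0.866% of genes, with 5 members lower at an unadjusted p under 0.05 and 5 called by DESeq2. There 3 members were called without CX-5461 mouse 3 or without combination mouse 3. The share of all genes called by DESeq2 and in these fits is not reported here, so the counts are not results about the members. The polysomal sum of the T cell markers was 102 to 120.1 CPM under CX-5461 and 95.8 to 129 under the combination, so these ranges overlapped. Of the B cell markers 3 of 9 tested were called higher under the combination (Cd22 0.36 ± 0.07 and Pax5 0.34 ± 0.07 among them) and of the myeloid markers 1 of 9 lower (Lyz2 -0.24 ± 0.08), and their part in these differences was not tested.

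Between combination and everolimus mice no member was called. In input RNA no gene of 16055 was called by edgeR (0%), 0 members had an unadjusted p under 0.05 and DESeq2 called 0. The estimates lay between -0.09 and 0.13 for 8 members and were 0.91 ± 0.67 for Hspa1a and 0.91 ± 0.63 for Hspa1b. In polysomal RNA no member was called either, against 0.0195% of genes, with 2 at an unadjusted p under 0.05 (Hspa1b 1.43 ± 0.68 and Hspe1 -0.21 ± 0.08) and 0 by DESeq2. For Hspa8 the polysomal difference was -0.02 ± 0.10, with a 95% interval of -0.23 to 0.18. The comparisons to vehicle, and those with the combination, share mice and are not independent of each other.

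Polysomal loading, tested as the interaction of fraction and treatment within mice, gave no call for any member or any other gene in the 3 acute comparisons (0% of 16421 genes each). After CX-5461 and after everolimus 0 members had an unadjusted p under 0.05, and under the combination 5 did (3 higher and 2 lower), while DESeq2 called 0 in all 3. Hspa1a stood out by size, with a log2 polysomal to input ratio of 0.78 ± 0.29 (SD, above 0 in 6 of 6 mice) under the combination and 0.13 ± 0.42 (4 of 6) under vehicle. The interaction was 0.64 ± 0.18 (SE, adjusted p = 0.231), and 0.42 ± 0.16 for Hspa1b (0.29). Without vehicle mouse 6 and combination mouse 3 it was 0.81 for Hspa1a (adjusted p = 0.0366), and without vehicle mouse 6 alone 0.68 (0.104). For Hspa1a, combination mouse 3 had the lowest polysomal to input ratio of its group (0.29), so leaving it out raises the interaction. Dnaja1 and Hspe1 had -0.18 ± 0.08 and -0.16 ± 0.06, also without a call.

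Among relapse lines the pair was again the most variable, now at a low level. In input RNA the summed CPM of Hspa1a and Hspa1b was 0.881, 2.49 and 1.72 in naive lines Ctrl6, Ctrl33 and Ctrl38, 25.5, 2.54 and 21.5 in CX14, CX20 and CX39, 2.42, 3.5 and 1.36 in EV4, EV12 and EV26, and 6.24, 4.93 and 3.94 in CMB8, CMB9 and CMB31. CX14 and CX39 stood above every other line, and CX20 stood at the level of the highest naive line. Polysomal RNA gave 3.4, 1.45 and 1.16 CPM in the naive lines, 23.9, 6.27 and 23.1 in the CX-5461 lines, 1.57, 2.6 and 1.88 in the everolimus lines and 2.47, 5.35 and 10.7 in the combination lines, with the CX-5461 and naive groups apart.

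Against the naive lines, CX-5461 relapse lines were higher in input RNA by 2.99 ± 0.70 (log2, SE) for Hspa1a and 3.52 ± 0.71 for Hspa1b (edgeR quasi-likelihood, adjusted p = 0.0242 and 0.0118), and in polysomal RNA by 3.00 ± 0.65 and 3.21 ± 0.71 (0.0163 and 0.0172). They were the only 2 members called in either fraction, against 8.37% of 14474 genes in input and 19.5% of 14797 in polysomal RNA. Without lines CX14 and CX39 the differences were 0.14 and 0.92 in input and 1.61 for each gene in polysomal RNA, none called (adjusted p = 0.947, 0.529, 0.256 and 0.281), with CX20 alone assumed to vary like the other groups. The calls therefore rest on those 2 of 3 lines. The medians over the 10 members were 0.14 in input and -0.17 in polysomal RNA, against -0.03 and -0.05 over all genes. In input RNA 5 of 15 early response genes were also called higher in the CX-5461 lines (Egr1 2.67 ± 0.52 and Nr4a1 0.60 ± 0.12 among them), and the B cell markers summed to 1287 to 2982 CPM, against 1441 to 1709.5 in the naive lines, and their part in these differences was not tested.

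The Hspa1a call in input was also lost without Ctrl6, Ctrl33, Ctrl38, CX14 or CX39 (adjusted p up to 0.0937), that of Hspa1b without CX14 (0.0522), and both polysomal calls without Ctrl33, Ctrl38, CX14 or CX39 (up to 0.0788). In input the column order puts CX14 and CX39 in 1 run with Ctrl33 and Ctrl38, where the sums were 25.5 and 21.5 against 2.49 and 1.72 CPM, and CX20 with Ctrl6, at 2.54 and 0.881 CPM. With that run as a term the input differences were 2.80 and 3.31 (adjusted p = 0.00397 and 0.00137). In polysomal RNA the 2 lines are a run of their own, so run and line cannot be told apart there, and with the run as a term the differences were 1.03 and 0.90 (adjusted p = 0.314 and 0.273).

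Lines CX14 and CX39 also stood apart for constitutive members in polysomal RNA. Hspa8 had 1375, 3457 and 1402 CPM in CX14, CX20 and CX39, against 3169, 2611 and 2829 in Ctrl6, Ctrl33 and Ctrl38. The log2 polysomal to input ratio of Hspa8 was -0.83 in CX14 and -0.97 in CX39, against 0.50 in CX20 and 0.33 to 0.67 in the 9 lines of the other groups. Over all 3 CX-5461 lines no member's loading was called by the interaction test in edgeR (0% of 15637 genes, 3 members lower at an unadjusted p under 0.05, 1 called by DESeq2), with -0.84 ± 0.32 for Hspa8 (adjusted p = 0.202). Leaving out CX20 keeps the 2 lines that stand apart, which are a run of columns of their own in polysomal RNA, so the values without it are descriptions of those 2 lines, and run and line cannot be told apart. The Hspa8 loading difference was then -1.31, and in polysomal RNA the count of members past the threshold was 8, 3 higher (Hspa1a, Hspa1b and Hsph1) and 5 lower (Hspa8 -1.06, Dnaja1 -0.72, Hspe1 -0.59, Hspd1 -0.48 and Hsp90ab1 -0.47). The share of all genes called without CX20 is not reported here, and it was 19.5% with all 3 lines. The count is therefore not a result about the members. Hsph1 had 236 and 225 CPM in CX14 and CX39, against 153 in CX20 and 142 to 158 in the naive lines.

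Everolimus and combination relapse lines had less Hsp90aa1 and Dnaja1 message in input RNA. Hsp90aa1, the inducible HSP90, had 256, 218 and 202 CPM in Ctrl6, Ctrl33 and Ctrl38, 144, 112 and 123 in EV4, EV12 and EV26 and 124, 129.9 and 193 in CMB8, CMB9 and CMB31. Neither drug group overlapped the naive lines, though CMB31 came close. The CX-5461 lines, at 174 to 191 CPM, also lay below all naive lines for Hsp90aa1, without a call. The differences were -0.83 ± 0.17 for everolimus (adjusted p = 0.0191) and -0.60 ± 0.17 for the combination (0.0405).

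Dnaja1 had 46.7, 38.7 and 35.1 CPM in the naive lines, 25.6, 22.7 and 26 in the everolimus lines and 19.4, 25.5 and 27.7 in the combination lines, with both drug groups below all naive lines (-0.70 ± 0.15, adjusted p = 0.0195, and -0.73 ± 0.15, 0.00993). Hspd1 had 271, 284 and 267 CPM in the naive lines and 211, 176 and 209.7 in the everolimus lines (-0.46 ± 0.13, adjusted p = 0.0381), again apart, while the combination lines, at 308, 236 and 287, lay on both sides of the naive ones (0.02 ± 0.13). Hsph1 was below all naive lines in the everolimus lines (16 to 17.7 against 23.4 to 39.3 CPM) without a call (-0.76 ± 0.28, adjusted p = 0.0922).

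In all, 3 members were called after everolimus, against 11.7% of 14474 genes, and 2 after the combination, against 13.5%. The Dnaja1 call after the combination held in all 11 alternatives. The Hsp90aa1 and Dnaja1 calls after everolimus were lost without Ctrl6, EV12 or EV26 (adjusted p up to 0.08), that of Hspd1 without any 1 of the 6 lines (up to 0.125), with no count filter (0.275) or with the compared groups alone (0.0683), and that of Hsp90aa1 after the combination without any 1 of the 3 naive lines, CMB8 or CMB9 (up to 0.164), with no count filter (0.0606) or with the compared groups alone (0.0913). The medians over members were -0.15 and -0.03, against -0.01 and -0.02 over all genes. The summed B cell markers lay above all naive lines, at 2014 to 2113 CPM in the everolimus and 1955 to 2619 in the combination lines, and their part in these differences was not tested.

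In polysomal RNA the Hsp90aa1, Dnaja1 and Hspd1 differences were not called. Hsp90aa1 had 838, 782 and 967 CPM in the naive lines, 933, 652 and 824 in EV4, EV12 and EV26 and 886, 773 and 805 in CMB8, CMB9 and CMB31, and the 3 groups overlapped (-0.10 ± 0.15 and -0.07 ± 0.15). No member was called after everolimus (0.115% of 14797 genes, 0 at an unadjusted p under 0.05, 0 by DESeq2) or after the combination (10%, 2 higher at an unadjusted p under 0.05, 1 by DESeq2). The everolimus lines lay below all naive lines for Hspd1 (681 to 802 against 856 to 1016 CPM) and Hsph1 (122 to 135 against 142 to 158), and the combination lines for Dnajb1 (61.3 to 65.3 against 67.1 to 73.5). The share of all genes whose groups lay apart is not reported here for any relapse comparison. With 3 lines per group, such gaps are descriptions of these lines. The log2 polysomal to input ratio of Hsp90aa1 was 1.28 ± 0.28 (SD, n = 3) in naive, 2.02 ± 0.12 in everolimus and 1.82 ± 0.42 in combination lines. The interaction was 0.74 ± 0.22 (SE) for everolimus and 0.55 ± 0.22 for the combination, not called (adjusted p = 0.366 and 1). By edgeR 0% of genes were called in either, with 2 members higher at an unadjusted p under 0.05 after everolimus and 1 after the combination, and 1 and 0 called by DESeq2.

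**Figure D5:**
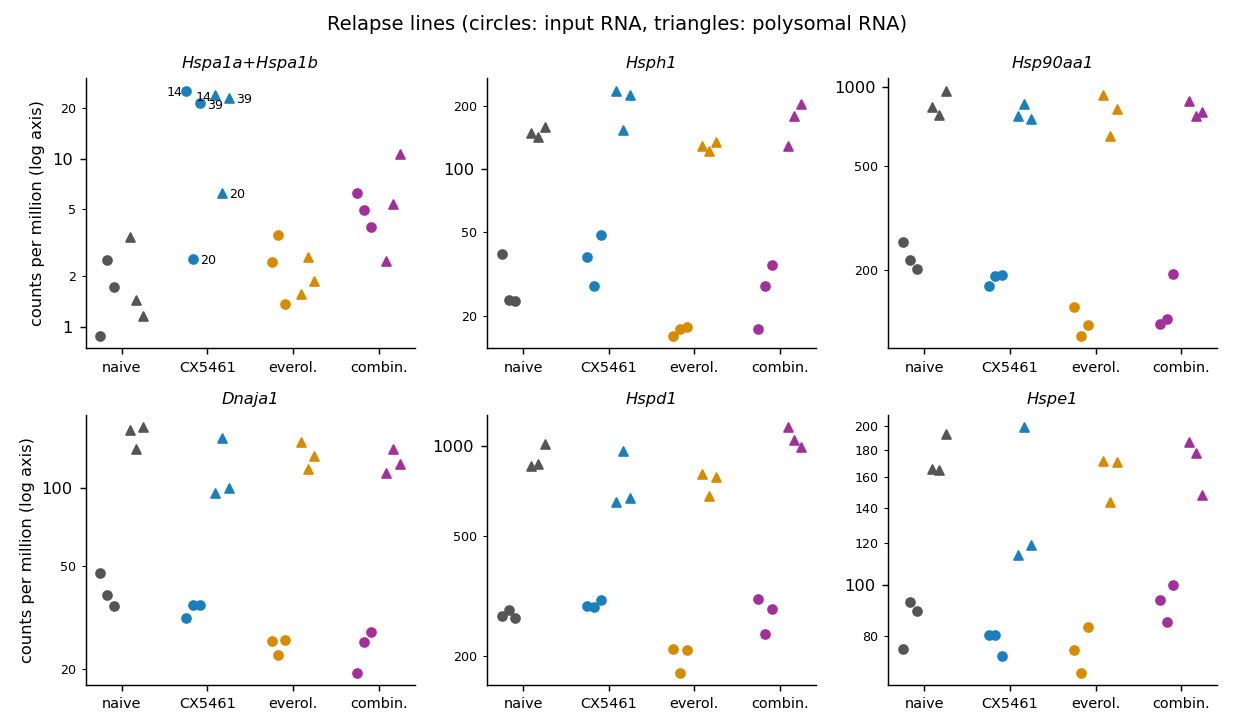
CPM of the Hspa1a and Hspa1b sum, Hsph1, Hsp90aa1, Dnaja1, Hspd1 and Hspe1 in each relapse line, circles for input and triangles for polysomal RNA, with the CX-5461 lines numbered in the panel of the pair. Lines CX14 and CX39 stand above the others for the pair, and everolimus and combination lines stand below the naive ones for input Hsp90aa1 and Dnaja1. The CX-5461 lines also stand below the naive ones for input Hsp90aa1.

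Combination relapse lines compared with single-drug lines gave no call among the members in edgeR. Against CX-5461 lines, 4 members were lower at an unadjusted p under 0.05 in input RNA (0.0207% of all genes called) and 2 differed in polysomal RNA (0.00676%), with 0 called by DESeq2 in both. Hspa1b had -1.76 ± 0.64 in input and -1.65 ± 0.66 in polysomal RNA, which again involves CX14 and CX39. Without line CX20, a choice that again keeps the 2 lines that stand apart and form their own run in polysomal RNA, the count past the threshold was 2 in input and 9 in polysomal RNA, 5 of them higher in the combination lines (Hspa8 1.06, Hspd1 0.69, Hspe1 0.56, Hsp90ab1 0.49 and Dnaja1 0.38) and 4 lower. The share of all genes called without CX20 is not reported here, so these counts are not results about the members. Against everolimus lines, 4 members differed at an unadjusted p under 0.05 in input RNA (0.719% of genes called, 1 member by DESeq2) and 3 in polysomal RNA (0.703%, 0 by DESeq2). Hspd1 was at 308, 236 and 287 CPM in the combination lines and 211, 176 and 209.7 in the everolimus lines, apart but not called (0.48 ± 0.13, adjusted p = 0.113).

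The wider chaperone network was described by 8 lists of related genes and counted in the same tests. In the acute polysomal comparison of the combination with CX-5461, 9 of 16 HSP90 co-chaperones were lower (Cacybp -0.57 ± 0.09 and Ptges3, the p23 protein, -0.44 ± 0.10), as were 10 of 14 subunits of the cytosolic chaperonin CCT and its partner prefoldin (Pfdn2 -0.32 ± 0.06 and Pfdn1 -0.38 ± 0.09) and 6 of 14 other J-domain genes (Dnajc8 -0.38 ± 0.07 and Dnajc21 -0.41 ± 0.08). None of these 3 lists had a member called higher. Of 6 tested HSP70 and HSP110 relatives 2 were lower (Hspa4 -0.26 ± 0.06 and Hspa14 -0.19 ± 0.07), and of 9 HSP70 exchange factors and partners 2 (Bag2 -0.33 ± 0.08 and St13 -0.26 ± 0.06). Of 15 mitochondrial chaperones and proteases, 4 were lower (Grpel2 -0.31 ± 0.07 and Dnaja3 -0.18 ± 0.05) and 1 higher (Spg7 0.22 ± 0.06). Of 3 HSF transcription factors and 5 small heat shock proteins tested, 0 were called. The list medians ran from -0.25 (HSP90 co-chaperones) to -0.02 (small heat shock proteins), against -0.01 over all genes, of which 23.6% were called.

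Against vehicle the same lists held calls in 1 direction under the combination, where 7.42% of all genes were called in polysomal and 7.48% in input RNA. In polysomal RNA 2 of 16 HSP90 co-chaperones (Ppid -0.40 ± 0.12 among them) and 1 of 15 mitochondrial genes (Dnaja3 -0.23 ± 0.05) were lower, and in input RNA 3 co-chaperones (Fkbp4 -0.47 ± 0.11 among them) and 2 mitochondrial genes (Grpel1 -0.28 ± 0.08 and Clpb -0.26 ± 0.08). No gene of the 8 lists was called higher in either. After CX-5461 1 of their genes was called, Pfdn2 in polysomal RNA (0.25 ± 0.06, adjusted p = 0.0493), and after everolimus 0.

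In input RNA of the relapse lines Hsf1 was higher in 3 of 3 drug groups and Hsf2 lower in 2 of 3. Hsf1, the main heat shock factor, was higher in CX-5461 (0.36 ± 0.10, adjusted p = 0.0479), everolimus (0.38 ± 0.10, 0.034) and combination lines (0.35 ± 0.10, 0.0405), and Hsf2, another heat shock factor, was lower in everolimus (-1.48 ± 0.40, 0.0367) and combination lines (-1.38 ± 0.40, 0.0402). In polysomal RNA Hsf2 was lower in CX-5461 (-0.97 ± 0.25, 0.0288) and combination lines (-0.98 ± 0.26, 0.0386), and Hsf1 was not called. The 3 comparisons share the naive lines. Bag2, a nucleotide exchange factor of HSP70, was lower in input RNA of all 3 (-1.19 ± 0.16, -0.94 ± 0.16 and -0.82 ± 0.16). In combination lines input Bag3 was lower (-1.82 ± 0.48) and Bag6 higher (0.59 ± 0.14). Polysomal Bag3 was lower in CX-5461 (-1.61 ± 0.42) and combination lines (-2.22 ± 0.44). Input Cct3, a CCT subunit, was higher in these 2 groups (1.02 ± 0.13 and 0.70 ± 0.13). Of all genes, 8.37% and 13.5% were called in their input RNA. Everolimus lines also had less Ptges3 (-0.90 ± 0.20), Cacybp (-0.82 ± 0.18), Hspa4 (-0.65 ± 0.17) and Hspa9, the HSP70 of mitochondria (-0.79 ± 0.14), and more of the HSP90 co-chaperone Unc45a (0.70 ± 0.19). Of the lists, 4 of 16 co-chaperones were lower and 1 higher, and 3 of 6 HSP70 and HSP110 relatives lower, against 11.7% of all genes called.

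Many HSP90 co-chaperone, CCT and prefoldin messages were also higher in polysomal than in input RNA. In vehicle mice 11 of 16 HSP90 co-chaperones were higher in polysomal RNA and 0 lower (median 0.36, with Nudc 0.98 ± 0.04 and Fkbp5 0.81 ± 0.05). Of 14 CCT and prefoldin genes, 10 were higher and 1 lower (median 0.25, with Cct8 0.85 ± 0.05). All 6 tested genes listed as small heat shock proteins were lower (median -0.72, with Hspb6 -0.66 ± 0.15). The J-domain genes went both ways, with 6 of 14 higher and 2 lower (median 0.08; Dnajb14 -1.33 among the lower). In the naive lines the medians were 0.89 for the co-chaperones, with 10 higher and 1 lower, and 0.97 for CCT and prefoldin, with 10 higher and 0 lower (Cct3 1.74 ± 0.11). There 6 of 13 J-domain genes were higher and 2 lower (median 0.40), and 1 of 2 small heat shock proteins tested was lower (Hspb6 -0.88 ± 0.23). All genes had medians of -0.07 and -0.10, with 56.9% and 44.1% called. The part of coding length in the differences between lists was not tested.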

How the data were processed

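RNA of 24 acute mice and 12 relapse lines was sequenced as ribodepleted single-end reads of 50 bases, per the labels' protocols. The authors deposited 4 tables of raw counts per gene symbol, made with TopHat2 and HTSeq on GRCm38, per the submitters' processing notes. Their versions, annotation, strand setting and use of multiply matching reads are not given in the sources used here. Entries that name no gene held 8.32% to 36.1% of the counts in acute libraries and were left out, and 27 gene names per relapse table had been turned into dates.

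Counts were scaled by TMM, filtered with filterByExpr and fitted with edgeR 4.0.16 (limma 3.58.1, R 4.3.3) by quasi-likelihood, with the 4 treatments of a table in 1 model, so that all groups share the estimate of spread. P-values were adjusted by Benjamini-Hochberg over all genes tested, with a threshold of 0.05. Polysomal loading was the fraction by treatment term on the joined tables with each mouse or line as a block, since its input and polysomal RNA come from 1 lysate. Levels are TMM-scaled CPM, with a prior count of 2 on the log2 scale, and levels between genes are compared per kilobase of GENCODE M21 exon length or, where said, of the longest coding transcript, a scale added after seeing the data. The steps were tested on simulated data.

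All 10 members were tested and counted in every comparison, and those not named in one were not called there. From other lists the text names at most the 2 genes per direction with the smallest adjusted p, of which 1 gene is not reported here. The members and lists were chosen with earlier results of these data known. Alternatives were DESeq2 1.42.0, other size factors, no filter, compared groups alone, replicate blocks, rich libraries left out, and vehicle mouse 6 with combination mouse 3 left out. Those 2 mice stood apart for several members in these same data. Fits without them are therefore descriptions of the remaining mice and no independent check of the calls. Leaving out each acute mouse, lines CX14 and CX39, and the run of columns as a term were added after seeing the data. Same-numbered acute mice of different groups did not vary together (mean r of 0.0115 in input and -0.0265 in polysomal RNA), so the numbers were not used to pair groups.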

Additional observations from a re-analysis of the deposited data

Results flagged for a closer look

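Over 80 groups of 6 values (10 genes, 4 treatments and 2 fractions), 7 held a mouse far from the other 5 by Dixon's test on the log2 scale, where chance gives about 1 in 20. In 5 of the 7 the mouse was vehicle mouse 6, low each time. It had 1519.6 CPM of Hspa8 in input RNA (others 2146 to 2553) and 1625 in polysomal RNA (2389.8 to 2539). Its input level was 67.5 CPM for Dnaja1 (others 88.1 to 98.6) and 58 for Hsph1 (96.4 to 106), and its polysomal level of Dnajb1 was 40.3 CPM (56.3 to 64). Without this mouse, Hspa8 under everolimus differed from vehicle by a log2 value of -0.45 in input and -0.40 in polysomal RNA, and under the combination by -0.42 and -0.43, all 4 called. Leaving out a vehicle mouse with low Hspa8 moves these differences down by itself. The other flagged mice were everolimus mouse 4, with 1847 CPM of input Hsp90ab1 (others 2133 to 2307), and CX-5461 mouse 2, with 45.5 CPM of polysomal Dnajb1 (54.6 to 59.6). Combination mouse 3, left out with vehicle mouse 6 in some fits, was not flagged.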

How the results depend on the processing

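Values are numbers of the 10 members called. The shares of all genes called in the alternative fits are not reported here, so changed counts are not results about the members. In acute input RNA, everolimus against vehicle gave 0, with 1 by DESeq2, 1 without vehicle mouse 6 and combination mouse 3, and 0 to 1 with 1 mouse left out (1 without vehicle mouse 6). The combination against vehicle gave 0, with 2 by DESeq2, 3 without both mice and 0 to 2 with 1 left out, and the combination against CX-5461 gave 0, with 5, 3 and 0 to 3. In acute polysomal RNA, everolimus gave 0, with 1 without both mice and 0 to 1 with 1 left out (1 without vehicle mouse 6). The combination gave 3, with 6 by DESeq2, 0 with no count filter, 2 with the compared groups alone (Hspa1a and Hspa1b, none of the 3), 7 without both mice and 0 to 4 with 1 left out. Loading under the combination gave 0, with 2 with no filter and 1 without both mice.

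In relapse input RNA, CX-5461 gave 2, with 0 for the compared groups alone, 0 without lines CX14 and CX39 and 0 to 2 with 1 line left out. Everolimus gave 3, with 5 with the run of columns as a term and 0 to 2 with 1 left out, and the combination gave 2, with 3 by each of DESeq2, no filter and the run term, and 1 to 2 with 1 left out. Combination against CX-5461 gave 0, with 2 with no filter and 0 to 2 with 1 left out (2 without CX20, which keeps the 2 lines that stand apart), and against everolimus 0, with 1 by DESeq2 and 1 with the run term. In relapse polysomal RNA, CX-5461 gave 2, with 0 for the compared groups alone, 0 with the run term, 0 without CX14 and CX39 and 0 to 8 with 1 left out. The combination gave 0, with 1 by DESeq2 and 3 with the run term. Against CX-5461 it gave 0, with 0 to 9 with 1 left out (9 without CX20), and against everolimus 0, with 2 with the run term. Loading after CX-5461 gave 0, with 1 by DESeq2 and 0 to 4 with 1 left out (4 without CX20), and after everolimus 0, with 1 by DESeq2. The cause of these changes was not tested.

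The number of the mouse as a replicate block across groups left 1 of the 3 members called in acute polysomal RNA under the combination and 5 of 5 against CX-5461, and 0 elsewhere in the acute tables. With no replicate block, the polysomal against input comparison gave 4 members in vehicle mice (6 with the block) and 4 in naive lines (5 with it), and loading gave 0 in each comparison. Of the single members' differences under alternatives, 3559 kept their direction and call, 92 gained a call, 94 lost one, 243 changed sign with no call in either fit, and 0 changed sign with a call. Depth limits the inducible pair most, with as few as 5 counts of Hspa1a in a relapse polysomal library. Reads shared with pseudogenes and between Hspa1a and Hspa1b limit the levels of single genes.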
